A study of Fukomys damarensis with 16 samples.

Results

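Of 21082 genes measured in 5 tissues of the Damaraland mole-rat, Fukomys damarensis, 150 are described here because they were read in brain, kidney, liver and ovary and stood lowest in testis. Levels are RPKM, that is reads per kilobase of the gene per 1000000 reads of the library, and which reads the authors counted in that divisor is not stated in the sources used here. For each gene the lowest log2(RPKM + 1) of the 14 brain, kidney, liver and ovary libraries was set against the highest of the 2 testis libraries, and the 150 genes with the largest gap were taken. The measured values therefore chose the members, and their low level in testis is a description, not a result. The study read poly(A) RNA of this burrowing, colony-living rodent in 16 libraries, with 1 library for each group. Brain, kidney and liver were sampled in 4 classes: breeders of either sex, non-breeding males of 5 years and non-breeding females of 3 years. The 2 ovary libraries are of the female classes and the 2 testis libraries of the male classes. Breeders carry no age in the labels, so status and age cannot be told apart. The labels name no treatment and do not say which libraries share an animal or hold several. P-values thus measure only the spread between these libraries. Of the 4 brain libraries 3 are labelled frontal brain, and the one of the non-breeding male only brain.

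The testis holds germ cells at successive stages of sperm formation, the Sertoli cells that nurse them and the hormone-making Leydig cells between the tubules. It is known for reading an unusually broad set of genes, many of them in no other tissue. During male meiosis the X and Y chromosomes are silenced, and some X-linked genes used by all other cells have autosomal copies that germ cells read in their place. None of the deposited identifiers (0 of 21082) matched a name, locus tag, synonym or accession among 33132 RefSeq genes of assembly DMR_v1.0_HiC. The function, sequence and chromosome of the members were thus not analysed here, and neither were cell type markers. In each comparison at most 2 identifiers per direction are printed, and other members are given by their rank in the gap. In bulk tissue, fewer cells that read a gene and less RNA per cell cannot be told apart.

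The members were well-read genes outside the testis and of middling level within it. Their median was 30.9 to 36.8 RPKM in the 4 brains, 37.5 to 50.4 in the kidneys, 45.8 to 56.1 in the livers and 27.3 (breeding) and 25.3 in the ovaries. The breeding testis had a median of 4.34 RPKM, and the non-breeding testis one of 4.47. Ranked among all genes of the same library, which no scaling of the library alters, the median member stood at percentile 79.4 to 88.2 in the other 14 libraries. In the 2 testes it stood at percentile 45.95 and 45.3. Reads on the members made up 1.13% to 1.95% of all gene reads in the other libraries, and 0.260% and 0.246% in the breeding and non-breeding testis.

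**Figure D1:**
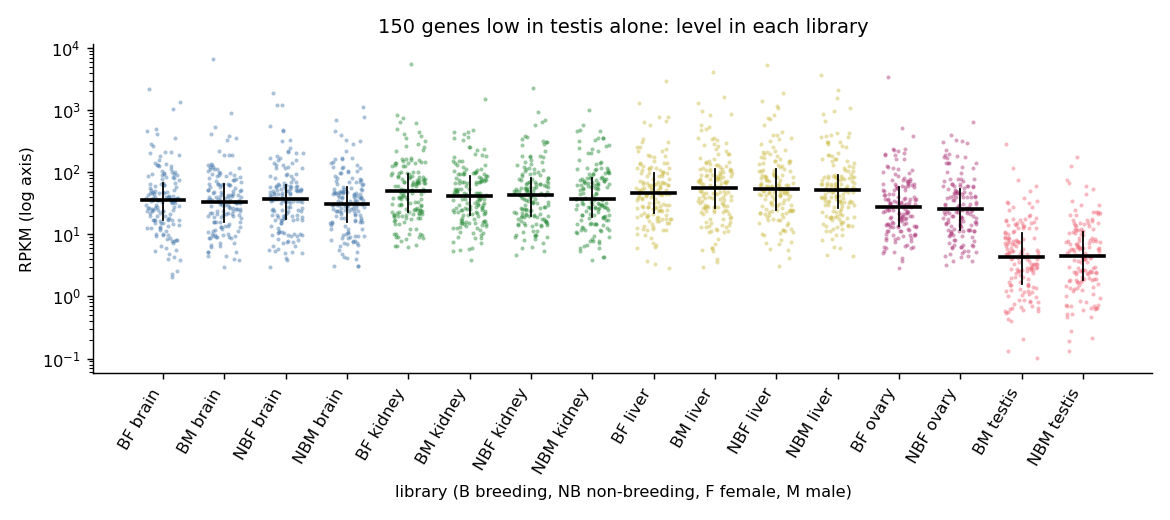
RPKM of the 150 members (log axis) in each of the 16 libraries, 1 point per gene, with the median as a thick bar and the middle 50% of genes as a thin line. The testis medians, 4.34 and 4.47 RPKM, lie under the lowest median of any other library, 25.3 RPKM in the non-breeding ovary.

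Few members were silent in testis. No member was at 0 reads in either testis, 126 of 150 reached 1 RPKM in both and 19 stayed under 1 RPKM in both. Reads per member ran from 1 to 3415 (median 153) in the breeding and from 3 to 4036 (median 222.5) in the non-breeding testis. Outside the testis no member fell under 2.07 RPKM, and 100 of 150 were at 10 RPKM or more in all 14 libraries. The lowest of the 14 values exceeded the higher testis value 3.17-fold in the median member, 4-fold or more in 47 members and 10-fold or more in 7.

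The member with the largest gap, DMR_08432, had a gap of 3.496 (log2). The breeding testis had 0.767 RPKM (29 reads) and the non-breeding testis 0.663 (35 reads). In the other tissues it stood at 23.6, 25.3, 36.7 and 19.4 RPKM in brain, 23.0, 22.0, 22.5 and 18.9 in kidney, 119.7, 68.5, 164.2 and 59.05 in liver and 36.8 and 23.4 in ovary. Values by tissue are given here and below in the order breeding female, breeding male, non-breeding female, non-breeding male, with the breeding library first in ovary and testis. This gene was even across brain, kidney and ovary and higher in all 4 livers, and its lowest value outside the testis stood 24.7-fold above the higher testis. The next member, DMR_08431, stood at 0.543 RPKM (8 reads) and 0.194 (4 reads) in the testes, where the exact 95% Poisson limits, which cover counting error only, reached up to 1.07 and 0.498 RPKM. In the other libraries it stood at 28.1, 32.1, 36.96 and 30.9 RPKM in brain, 30.97, 25.1, 14.8 and 17.3 in kidney, 128.2, 94.4, 152.0 and 75.8 in liver and 39.6 and 29.4 in ovary. Both genes were highest in the same library, the non-breeding female liver, and their identifiers follow each other in number.

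The members ranked 3 to 5 reached higher levels. The member ranked 3 had 7.80 and 7.03 RPKM in the testes and between 79.2 (breeding ovary) and 395.3 (non-breeding female liver) elsewhere. The member ranked 4 had 2.57 and 2.999 RPKM in the testes, 31.6 to 49.7 in brain, 195.3 to 311.5 in kidney, 31.3 to 84.95 in liver and 87.1 and 178.6 in ovary. The member ranked 5 had 3.30 and 1.998 RPKM in the testes and was a brain-high gene, at 398.2 to 468.1 RPKM in brain against 27.8 to 71.1 in kidney, liver and ovary. The member with the fewest testis reads, ranked 24, had 1 and 3 reads there, with exact Poisson upper limits of 0.560 and 0.630 RPKM against 3.79 in its lowest other library. The rule used these values, so their distance describes the member and is no test. At the edge of the set the differences were small: the last 3 members had gaps of 1.148, 1.146 and 1.1455 (log2), and the next 3 genes, which are not members, 1.1421, 1.1382 and 1.1344.

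In limma (log2(RPKM + 1), tissue in the model, 17327 genes tested) 150 of 150 members were called lower in testis than in the mean of the other 4 tissues. The same values chose the members, so nothing is read from the count. As deposited, 19.8% of all genes tested were called lower in testis and 21.9% higher. Calls used a limma adjusted p of 0.05 and a difference of at least 1 (log2). Of the 8868 genes at 2 RPKM or more in all 16 libraries 20.7% were called lower and 12.2% higher, also as deposited. The balance over all genes depended on the scaling. After scaling to reads on genes 11.7% were lower and 31.9% higher, and with voom on the recovered reads 11.3% and 38.8%. Higher calls made up 52.6% of the calls over all genes as deposited and 73.1% after scaling. With voom this share was 77.4%, and with quantile normalization 45.4%. The median difference of the members was -2.63 as deposited, -2.12 after scaling to reads on genes, -2.92 after quantile normalization and -2.45 with voom on the recovered reads.

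Which genes made the set depended on the scaling. Reads on genes came to 0.665 and 0.686 of the deposited RPKM divisor in the testes, 0.765 to 0.945 in brain, kidney and ovary and 1.55 to 1.97 in liver. Deposited testis levels are thus low, and liver levels high, relative to the reads on genes. After every library was scaled to the reads on its genes, 98 of the 150 members were still among the first 150, 143 kept a gap above 0 and the median gap was 0.96 (log2) instead of 1.40. With the breeding testis alone 121 stayed in the first 150, and with the non-breeding testis alone 115. Under all 6 alternatives of the rule 54 members stayed, among them 24 of the 25 with the largest gap.

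The same gap was computed for each tissue in turn. As deposited, 1805 genes were lower in both testes than in every other library, against 1569 in liver, 1525 in brain, 602 in ovary and 380 in kidney. A gap above 1 (log2) was found for 229 genes in testis, 196 in liver and 152 in brain, and one above 2 for 22, 25 and 17. Testis and ovary have 2 libraries and the other tissues 4, and fewer libraries leave more room for a gap. Scaled to reads on genes, the order of testis and liver turned. Genes with a gap above 0 then numbered 625 in testis, 5513 in liver and 954 in brain, and those with a gap above 1 numbered 70, 782 and 126. The largest single gaps were alike in 3 tissues as deposited, 3.496 in testis, 3.493 in brain and 3.14 in liver, and 3.86 in ovary and 1.90 in kidney.

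**Figure D2:**
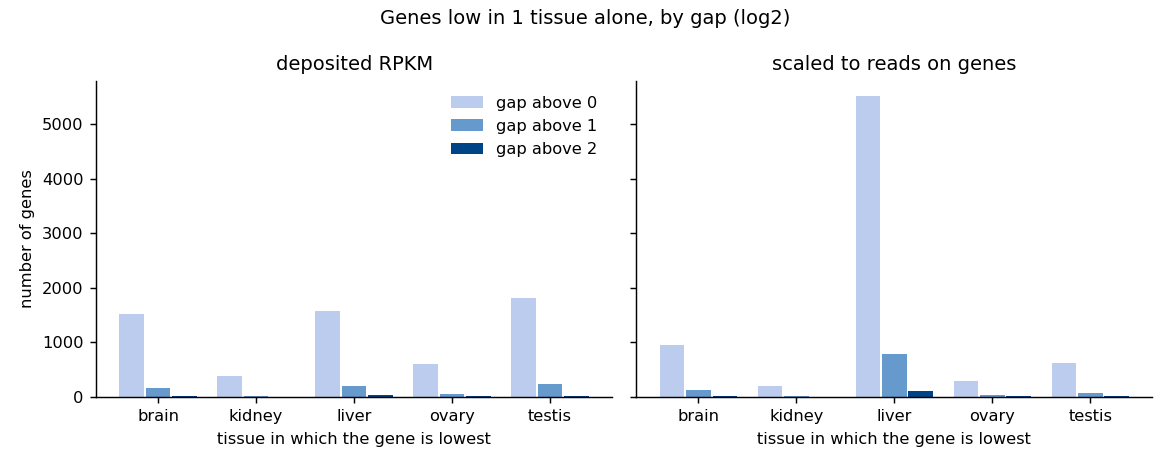
Number of genes whose highest value in a tissue lies under the lowest value of all other tissues, for gaps above 0, 1 and 2 (log2), from the deposited RPKM (left) and after scaling to reads on genes (right). Testis leads with 1805 genes at left, and liver with 5513 at right.

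The members were then compared between the tissues other than testis. Each of brain, kidney, liver and ovary was set against the mean of the other 3 in limma, with 14 libraries and 16303 genes tested. The 4 differences of a gene balance each other, so a rise in 1 tissue lowers the differences of the others. Counts of the 4 tissues are thus not separate results. A call needed a limma adjusted p of 0.05 and a difference of at least 1 (log2). The rule used the lowest of these 14 values, which limits how low a member can lie in any tissue, but set no direction between them. All 150 members were among the genes tested, and none was under 2.07 RPKM in a library of this fit. In at least 1 of the 4 tissues 87 members (58.0%) were called, and 63 were called in none. The share was 60.8% of all genes tested and 47.5% of the 9081 genes at 2 RPKM or more in all 14 libraries, so the members lay between both. As deposited, the means of the 4 tissues lay within 1 (log2) of each other in 41 members and more than 3 apart in 23. After scaling to reads on genes they lay within 1 in 33 members. The median span as deposited was 1.51, against 1.23 for the same 9081 genes. In the genes low in liver alone and in brain alone, chosen by the same gap, the median spans over their own other tissues were 2.26 and 2.17. Those spans include testis and are thus over other sets of tissues. The narrowest span belonged to a member ranked 94, singled out after its values were seen, with tissue means of 23.8 RPKM (SD 5.62, n = 4) in brain, 26.7 (SD 7.81, n = 4) in kidney and 23.9 (SD 6.14, n = 4) in liver. Its ovaries had 34.5 and 19.5 RPKM, and its testes 3.68 and 6.25.

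In liver 43 members were called higher and 10 lower (28.7% and 6.67%), where 15.2% of all genes tested were called higher and 21.7% lower. Among the genes at 2 RPKM or more in all 14 libraries the shares were 13.9% and 10.2%. Whether higher or lower calls prevailed among the members depended on the scaling. After scaling to reads on genes 17 members were called higher and 50 lower, beside 7.23% and 47.2% of all genes. Higher calls then made up 25.4% of the members' calls, against 81.1% as deposited, and 13.3% of the calls over all genes, against 41.2%. DMR_13945 had the largest rise, with 667.5, 823.3, 730.7 and 674.6 RPKM in liver. It stood at 13.8 (SD 2.07, n = 4) in brain, 14.1 (SD 5.05, n = 4) in kidney, 20.0 and 9.11 in ovary and 3.27 and 2.51 in testis. The 4 livers thus stood apart from the remaining 12 libraries (log2 difference 5.63, SE 0.209, limma adjusted p = 1.32e-11). DMR_11982 followed, at 1326, 1611, 1876 and 1574 RPKM in liver against 29.7 to 97.3 in brain, kidney and ovary (log2 difference 4.71, SE 0.14, limma adjusted p = 1.24e-12), and at 12.9 and 12.1 in testis. Of the members lower in liver, DMR_00626 stood at 8.82, 5.31, 5.79 and 6.34 RPKM there. It stood at 33.5 (SD 6.94, n = 4) in brain, 34.3 (SD 11.0, n = 4) in kidney, 11.51 and 6.19 in ovary and 0.980 and 1.40 in testis. The non-breeding ovary lay within the range of the livers (log2 difference -1.57, SE 0.214, limma adjusted p = 1.38e-05).

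In ovary 4 members were called higher and 41 lower (2.67% and 27.3%), where 12.4% of all genes tested were called higher and 16% lower. Among genes at 2 RPKM or more in all 14 libraries the shares were 10.1% and 9.26%. Scaled to reads on genes, 13 members were higher and 20 lower, beside 23.2% and 11.4% of all genes. Higher calls made up 8.89% of the members' calls as deposited and 39.4% after scaling, against 43.6% and 67.1% over all genes. By tissue means the ovary was the lowest of the 4 in 63 members (42.0%) as deposited, against 20.6% of the genes at 2 RPKM or more in all 14 libraries. After scaling it was lowest in 21 members (14%, against 5.24%). DMR_00422 had the largest fall, with 7.58 and 4.79 RPKM in ovary. It stood at 153.5 (SD 46.7, n = 4) in brain, 51.99 (SD 14.04, n = 4) in kidney and 141.7 (SD 34.1, n = 4) in liver, and at 1.096 and 1.37 in testis (log2 difference -3.86, SE 0.287, limma adjusted p = 8.3e-08). The ovaries lay between the testes and all 12 remaining libraries. DMR_16392 showed the same order, with 7.84 and 9.91 RPKM in ovary, 13.1 to 17.0 in brain, 77.0 to 206.0 in kidney, 253.4 to 479.8 in liver and 1.53 and 2.67 in testis (log2 difference -3.27, SE 0.301, limma adjusted p = 6.68e-07). DMR_17269 rose in ovary, with 232.3 and 140.3 RPKM there against 30.0 to 108.0 in brain, kidney and liver and 4.73 and 10.2 in testis (log2 difference 1.63, SE 0.321, limma adjusted p = 0.000772). DMR_05726 rose in ovary at low levels, with 16.9 and 13.7 RPKM against 2.61 to 9.90 in brain, kidney and liver (log2 difference 1.23, SE 0.234, limma adjusted p = 0.000562), and 0.598 and 0.523 in testis.

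In kidney 22 members were called higher and 11 lower (14.7% and 7.33%), where 12.1% of all genes tested were called higher and 13.1% lower. Among genes at 2 RPKM or more in all 14 libraries the shares were 7.91% and 5.22%. Scaled to reads on genes the counts were 32 and 6, beside 14.7% and 11.6% of all genes. Higher calls made up 66.7% of the members' calls as deposited and 84.2% after scaling, against 48.0% and 56.0% over all genes. DMR_03677 stood at 147.5, 151.7, 180.1 and 141.1 RPKM in kidney, 19.0 to 22.9 in liver, 4.26 to 5.72 in brain, 6.10 and 3.76 in ovary and 0.561 and 0.645 in testis. Its kidneys varied little and stood apart from the other 12 libraries (log2 difference 4.10, SE 0.126, limma adjusted p = 3.14e-12). DMR_15165 stood at 350.2, 254.8, 342.0 and 241.1 RPKM in kidney and at 230.2 and 76.5 in ovary, against 19.0 to 57.4 in brain and liver and 6.06 and 5.73 in testis (log2 difference 2.52, SE 0.283, limma adjusted p = 3.04e-06). The fall of DMR_13945 in kidney (log2 difference -1.89, SE 0.209, limma adjusted p = 2.52e-06) stood beside overlapping values in kidney, brain and ovary, with the livers alone apart. DMR_13752 was lower in kidney without such a tissue, at 6.84, 10.6, 8.10 and 18.2 RPKM there against 24.3 to 47.98 in brain, liver and ovary (log2 difference -1.57, SE 0.2, limma adjusted p = 1.16e-05).

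Brain had 20 members called higher and 35 lower (13.3% and 23.3%), where 22.4% of all genes tested were called higher and 20.9% lower. For the genes at 2 RPKM or more in all 14 libraries the shares were 12.4% and 20.7%. Scaled to reads on genes the majority turned, with 28 higher and 23 lower, beside 26.3% and 16.7% of all genes. Higher calls made up 36.4% of the members' calls as deposited and 54.9% after scaling, against 51.8% and 61.1% over all genes. DMR_04216 stood at 458.3, 357.2, 546.3 and 469.3 RPKM in brain, 30.8 to 51.0 in kidney, 9.73 to 16.8 in liver, 17.8 and 14.5 in ovary and 0.837 and 0.935 in testis. Tissues followed each other from brain to testis with overlap of liver and ovary alone (log2 difference in brain 4.402, SE 0.172, limma adjusted p = 9.68e-12). It was also called lower in liver (log2 difference -2.23, SE 0.172, limma adjusted p = 3.37e-08). DMR_20508 stood at 74.0 to 156.5 RPKM in brain and 3.59 to 8.95 in kidney, liver and ovary (log2 difference 4.03, SE 0.238, limma adjusted p = 1.13e-09), and at 0.674 and 0.697 in testis. DMR_19032 was the reverse, at 7.87, 9.45, 9.89 and 9.38 RPKM in brain, 30.8 and 47.4 in ovary, 128.9 to 134.6 in kidney, 644.4 to 981.7 in liver and 2.92 and 1.87 in testis. No 2 tissues overlapped in this gene (log2 difference in brain -4.01, SE 0.135, limma adjusted p = 2.02e-12). DMR_00195 stood at 2.07, 5.28, 3.03 and 3.07 RPKM in brain, 33.8 to 70.8 in kidney and 48.7 to 109.0 in liver, and at 0.210 and 0.279 (7 and 13 reads) in testis (log2 difference in brain -3.33, SE 0.387, limma adjusted p = 2.15e-06). The breeding ovary, at 44.96 RPKM, lay with kidney and liver, and the non-breeding ovary, at 6.27, near the brains.

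**Figure D3:**
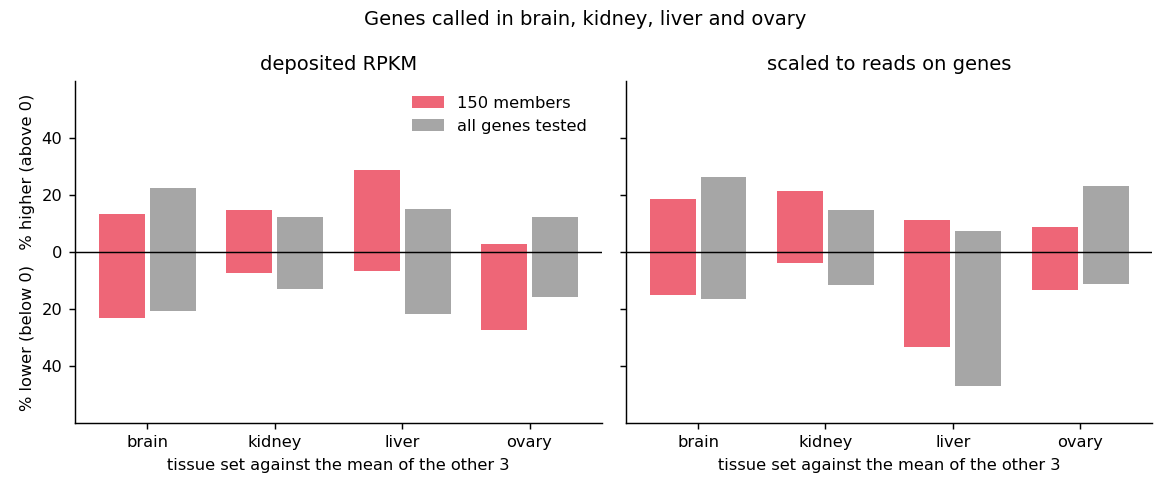
Share of the 150 members (red) and of all genes tested (grey) called higher (above 0) or lower (below 0) in each tissue against the mean of the other 3, from the deposited RPKM (left) and after scaling to reads on genes (right). In liver the members' shares are 28.7% higher and 6.67% lower at left and 11.3% and 33.3% at right.

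Some members stood next to each other in number. The 150 members held 4 pairs of consecutive identifiers, 8 members or 5.33%. Genes low in brain alone and genes low in liver alone also held 4 pairs each, those low in ovary alone 5 and those low in kidney alone 6. Whether the numbers follow the genome is not stated in the sources used here. In 3 of the 4 pairs both genes followed the same course. For the leading pair the Pearson correlation of log2 values over the 14 other libraries was 0.95, for the pair ranked 101 and 88 it was 0.97 and for the pair ranked 17 and 15 it was 0.93, where tissue differences shared by both genes weigh in. The pair ranked 5 and 11 did not follow each other (-0.11): the first was brain-high and the second stood at 20.7 to 61.8 RPKM in brain and 40.7 to 111.6 in liver. The genes next in number to a member that were not members themselves numbered 279. Of these, 9.68% had a gap above 0 in testis, against 8.56% of all genes.

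**Figure D4:**
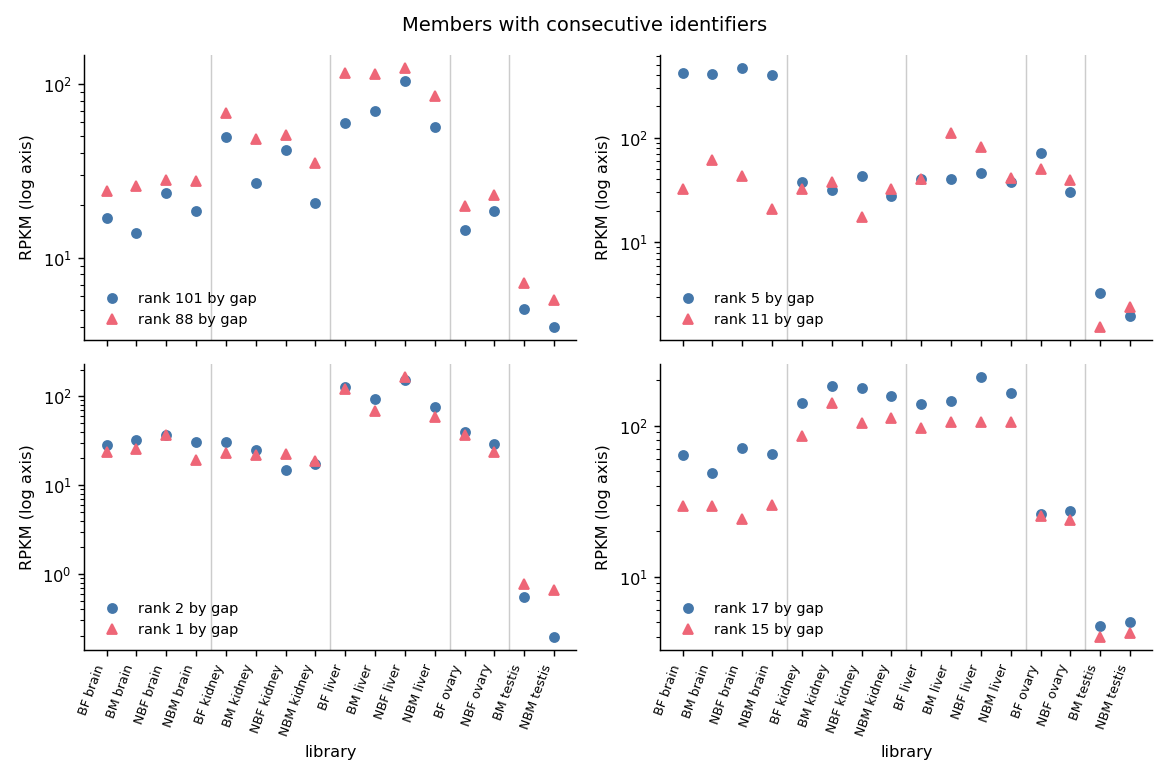
RPKM (log axis) of the 4 pairs of members with consecutive identifiers in the 16 libraries, circles for the first and triangles for the second gene of a pair, with vertical lines separating tissues. The 2 genes rise and fall together across tissues in 3 panels, and in the pair ranked 5 and 11 they part in brain, at 398.2 to 468.1 against 20.7 to 61.8 RPKM.

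Gene lengths were recovered from the RPKM values in assumed units of 3 bases. The sources used here do not state whether these are coding lengths. The members' lengths ran from 237 to 6630 bases with a median of 1146. The median was 1056 bases over all genes and 1377 over the genes at 2 RPKM or more in all 14 libraries. It was 1233 bases in the genes low in brain alone and 1615.5 in those low in liver alone.

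The effect of breeding status was fitted in brain, kidney and liver together, and tissue and sex were terms of the model (12 libraries, 15964 genes tested). The choice of members set no direction for status or sex. It used the lowest value over libraries that include these 12, so the size of a change was not left free. No member was called by limma (0 of 150). Of all genes tested 0.0188% were called higher and 0.00626% lower in breeding libraries. Of the 9256 genes at 2 RPKM or more in all 12 libraries the shares were 0.0216% and 0.0108%. An unadjusted p under 0.05 was found for 21 of 150 members and 2161 of all 15964 genes. With voom 0 members were called, beside 4 of all genes tested higher and 0 lower. The median difference of the members was -0.02 (log2), against 0.02 for all genes. When libraries of 1 tissue and 1 sex were paired, 5 members (3.33%) were higher and 6 (4.0%) lower in the breeding library of all 6 pairs, against 3.45% and 3.66% of all genes tested. The shares were 3.64% and 5.2% of the 9256 genes. DMR_19861 had the smallest unadjusted p and did not pass (log2 difference 0.40, SE 0.0976, limma adjusted p = 0.203). Its breeding livers had 26.4 and 27.5 RPKM and its non-breeding livers 19.0 and 18.9, beside 9.75 and 9.75 against 6.30 and 7.72 in the kidneys and 7.84 and 9.85 against 6.52 and 7.496 in the brains. Breeding and non-breeding libraries did not overlap within any of the 3 tissues.

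Between the sexes, in the same fit, limma called 0 members higher and 1 lower in males (0.667%), where 0.332% of all genes tested were higher and 0.157% lower (0.389% and 0.216% of the 9256 genes above). An unadjusted p under 0.05 was found for 34 members and 3100 of all genes. In 6 of 6 matched pairs 3 members (2.0%) were higher and 12 (8.0%) lower in the male library, against 5.36% and 4.52% of all genes tested. The shares were 7.08% and 5.7% of the 9256 genes. The called member, DMR_21179, had 36.3 and 31.6 RPKM in female brains and 21.4 and 21.6 in male brains. It stood at 24.7 and 32.4 against 21.7 and 19.1 RPKM in the kidneys and at 24.6 and 20.4 against 11.2 and 11.4 in the livers. Female values were higher in 6 of 6 pairs, with no overlap within a tissue (log2 difference -0.67, SE 0.118, limma adjusted p = 0.0437, range 0.0235 to 0.203 over 18 alternatives). Ovaries had 22.0 and 15.7 RPKM of this gene, and testes 3.34 and 2.47. The call was lost under 13 of 18 alternatives, among them scaling to reads on genes (adjusted p = 0.0752), voom (0.0697) and kidney and liver only (0.203), and without any 1 of 9 of the 12 libraries. Without the breeding female liver 9 members and 426 of all genes were called lower in males. Among non-breeders, males of 5 years were set against females of 3 years, and there sex and age cannot be told apart.

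The breeding and the non-breeding testis were compared as a description. They have 1 library each, so there is no replicate check and no test. On the log2(RPKM + 1) scale 0 of the 131 members at 1 RPKM or more in either testis differed 2-fold or more between the breeding and the non-breeding library, where 0.634% of 15452 genes were higher and 2.64% lower by that much. The rule takes the higher of both testis values, which leaves the direction of their ratio free but not its size, and at these low levels the scale shrinks ratios. Nothing is therefore read from the count or the spread of the ratios. The ratios of these members ran from -0.97 to 0.74 (log2) with a median of -0.01 and an SD of 0.30, against a median of -0.06 and an SD of 0.43 over all genes. With a pseudocount of 0.1 in place of 1, a rise of 2-fold or more in the breeding testis was found for 275 of the 15452 genes. A fall of that size was found for 724. Among the members 3 reached a 2-fold difference, 1 higher and 2 lower in the breeding testis. The highest ratios belonged to DMR_09572, at 2.38 RPKM (43 reads) against 1.03 (26 reads), and DMR_13390, at 285.4 against 178.6 RPKM. The lowest belonged to DMR_17269, at 4.73 RPKM (59 reads) against 10.2 (178 reads), and DMR_07454, at 38.96 against 66.8 RPKM. None of the 4 ratios reached 1 (log2).

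The 2 ovaries were compared in the same way, also without replicates. The rule used the lowest value outside the testis, which leaves the direction of the ovary ratio free but not its size. By 2-fold or more, 7 of the 150 members were higher and 5 lower in the breeding ovary (4.67% and 3.33%), where 6.35% of 14109 genes were higher and 1.91% lower. The median ratio was 0.09 (log2) with an SD of 0.60, against 0.02 and 0.63 over all genes. DMR_00195 had the highest ratio, at 44.96 RPKM (1631 reads) in the breeding ovary against 6.27 (173 reads) in the other (2.66, log2). DMR_13390 followed, at 3478 against 637.9 RPKM. The lowest ratios belonged to DMR_22148, at 66.2 against 189.3 RPKM, and DMR_02643, at 56.4 against 141.8 RPKM. In the testes DMR_22148 stood at 27.4 and 24.5 RPKM and DMR_02643 at 11.3 and 15.2. The members at the ends of the ovary range were thus not the ones at the ends of the testis range, except DMR_13390, which was higher in the breeding library of both.

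**Figure D5:**
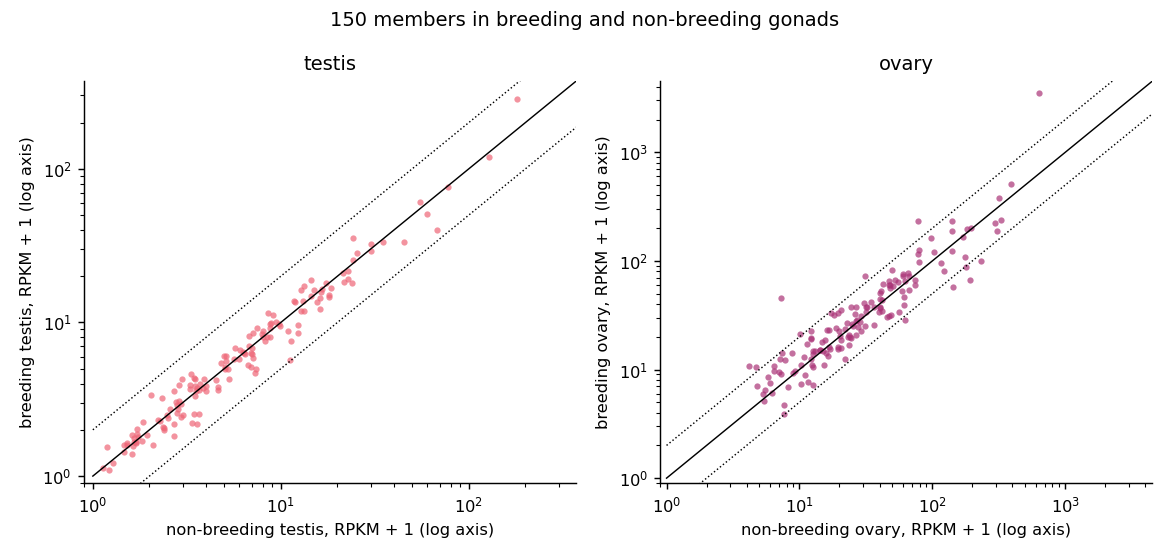
RPKM + 1 of the 150 members (log axes) in the breeding against the non-breeding testis (left) and ovary (right), 1 point per gene, with the line of equality and dotted lines at 2-fold. No member at 1 RPKM or more lies outside the dotted lines in testis, and in ovary 7 lie above and 5 below them.

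DMR_13390 reached the highest level of any member, and it varied within every tissue. It stood at 2219, 6670, 1881 and 772.1 RPKM in brain, 5550, 1494, 2258 and 1009 in kidney and 2990, 4144, 5328 and 2141 in liver. Within the 4 brains it varied 8.64-fold, the widest range of any member there, with the breeding male highest and the non-breeding male lowest. In kidney and liver the widest ranges belonged to 1 other member, ranked 72, at 46.6 RPKM in the breeding male and 616.2 in the breeding female kidney, and at 580.1 in the breeding male and 3695 in the non-breeding male liver. Such ranges were rare. A spread over 4-fold within a tissue was found for 1 member in brain, 3 in kidney, 5 in liver and 2 in ovary. That is 0.667%, 2.0%, 3.33% and 1.33% of them, against 0.396%, 1.4%, 1.31% and 0.297% of the genes at 2 RPKM or more in all 14 libraries. The median member varied 1.504-fold among the brains, 1.60-fold among the kidneys, 1.64-fold among the livers, 1.27-fold between the ovaries and 1.15-fold between the testes. For the genes at 2 RPKM or more in all 14 libraries these medians were 1.49, 1.56, 1.51 and 1.18 in brain, kidney, liver and ovary. A range grows with the number of libraries, 4 in brain, kidney and liver and 2 in ovary and testis. The folds are thus not compared between tissues with 4 and with 2 libraries. In testis the rule, which took the higher value, also limits the spread.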

How the data were processed

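The authors deposited 1 table of RPKM values, with genes in rows and the 16 libraries in columns, all used here. Per the submitters' processing notes TopHat 1.3.1 was used. Counting tool, genome build and annotation were not given in the sources used here. From the RPKM, lengths (in assumed units of 3 bases), divisors and whole reads were recovered. They rebuild 100% of the values above 0 within 1e-11 of their size. A common factor of reads and length gives the same RPKM, so the rebuilding checks neither of them. Reads on genes came to 15393003 to 27593857 per library. Tests ran in limma 3.58.1 (R 4.3.3, eBayes with a trend) on log2(RPKM + 1), over genes that reached 1 RPKM in 2 or more libraries of the fit, with Benjamini-Hochberg adjustment over all genes tested and a threshold of 0.05. Log2 differences on this scale understate changes of low genes. Recovery and fits were checked on simulated data. Named members were the 2 with the largest gap and, per comparison and direction, the 2 with the largest difference past the threshold, or the one with the smallest p where none passed. In pairs of libraries they were the 2 highest and 2 lowest ratios. The members, tests and alternatives were chosen with earlier results of these data known. Alternatives were other pseudocounts, scaling to reads on genes, quantile normalization, voom on recovered reads, no filter, fewer tissues, a class covariate and each library left out. The alternatives for the testis contrast were added after seeing the data.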

Additional observations from a re-analysis of the deposited data

How the results depend on the processing

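No fit with a replicate block was made, since the labels give no replicate numbers. Libraries were matched by tissue, sex and status instead. Scaling to reads on genes moved most counts. Brain then had 23 members lower (33 higher with voom), kidney 6 lower (voom 7), liver 17 higher and 50 lower (voom 18 and 53, quantile normalization 16 lower) and ovary 13 higher and 20 lower (voom 14 and 19). The shares of all genes tested moved as well. With voom 31.7% of all genes were higher in brain and 13.3% lower in kidney. In liver 8.81% were higher and 57.3% lower with voom, and in ovary 30.7% and 10.5%. With quantile normalization 19.1% of all genes were lower in liver. With the class of status and sex added as a covariate 2 members (1.33%) were higher in ovary, beside 12.3% of all genes tested. Leaving out each library in turn gave 2 to 5 members higher in ovary, fewest without the kidney of either male, and 1772 to 2066 of all genes. In the breeding comparison it gave 0 to 1 lower, and 1 only without the breeding female brain, where 36 of all genes were called lower. Between the sexes it gave 0 to 9 members lower in males. That count was 0 after scaling, without a filter and with kidney and liver only, and 2 with voom. DMR_21179 was not among the 2, and nothing is read from these counts. In the testes 1 member was 2-fold higher with a pseudocount of 0.1 and 1 after quantile normalization, and 2 and 1 were lower. Of 15452 genes, 275 and 241 were higher and 724 and 469 lower. The rule repeated after scaling kept 98 of 150 members. Over all alternatives, 220 counts of members stayed within 1.5 times the reported one and 36 did not. Among them are the counts of the testis contrast, which the choice of members fixed. Counts of members higher in breeding libraries or in males, at 0 throughout, are also included. The tally is therefore no measure of how steady the results are. No difference of a named member changed direction. The p-values rest on 1 library per group, and testis counts under 100 reads, found for 54 and 47 members, limit the precision of single ratios there.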
